A study of Mus musculus with 18 samples.

Results

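Gene expression in an Nfat5 knock-out line (KO) of mouse embryonic fibroblasts was compared with that in a wild-type line (WT), both kept in isotonic medium. The arrays were chosen by title, 3 titled KO and 3 titled WT with the medium number 300, which are 6 of the 18 arrays of the study. Each trio carries the numbers 1, 2 and 4, and arrays are called below by line and number. Over all 18 arrays the study covers 6 groups of 3: the WT line in isotonic or hypertonic medium, each with and without pretreatment with the mTOR inhibitor Torin1 (100 nM for 1 h), and the KO line in isotonic or hypertonic medium. No array of the comparison saw Torin1. The hypertonic arrays (medium number 500) serve to set the same line difference beside the isotonic one. All 18 arrays, those with Torin1 among them, also enter the filter on dim genes and the spread behind each standard error and p-value. The medium numbers carry no unit, and the labels do not say how long cells stayed in hypertonic medium.

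Both lines are labelled with the strain 129sv/ev and as MEFs, the WT line with the number 5.4 and the KO line with 5.1. Each genotype is 1 line, so the loss of Nfat5 and any other difference between these lines cannot be told apart. No label ties the 3 arrays of a group to separate cultures, and p-values then measure only the spread between arrays within groups, which may be technical. The title of KO array 1 reads KO 300, but its genotype field reads wild-type 5.4. It was kept with the KO group, and counts are repeated without it. Over the 5007 genes called between the hypertonic KO and WT arrays, on a scale where isotonic WT arrays average 0 and isotonic KO arrays 2 and 4 average 1, the array labelled KO 1 lay at 1.006, beside 1.003 and 0.997 for KO arrays 2 and 4, while the 12 WT arrays lay between -0.045 and 0.051. With KO array 1 counted as WT, as its genotype label has it, limma called 0 genes (2214 at an unadjusted p under 0.05).

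NFAT5 is a transcription factor of the Rel family. When the medium around a cell becomes hypertonic it activates genes that let the cell take up or make organic osmolytes, small solutes such as myo-inositol, betaine, taurine and sorbitol, and genes for chaperones. It is also present in isotonic cells. Embryonic fibroblasts are a mixed mesenchymal population, and lines grown from them can differ in the matrix they secrete, in the positional and lineage transcription factors they keep, and in how far they resemble precursors of fat, cartilage, bone or contractile cells.

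Values are robust multi-array average (RMA) signals on the log2 scale, so a difference of 1 is 2-fold. A level is the value of a gene on an array and is compared only with the same gene on other arrays. Differences are KO minus WT, given ± the standard error of limma's fit with n = 3 arrays per line, and a gene is called when its limma p, adjusted over the 15711 genes tested, is below 0.05. Gene-level medians of the isotonic arrays lay between 7.64 and 7.74. Arrays 1 and 2 of a line were close (r = 0.991 over genes in WT and 0.995 in KO), and number 4 stood apart in both (0.971 to 0.980), with 386 to 537 genes at least 2-fold from its partners. Of 15 fibroblast markers 13 had a WT mean and 14 a KO mean above the filter on dim genes (5.86), with Lum below it in WT and Fap in both, and Xist was at 5.05 to 5.58 while the Y-linked genes Kdm5d, Uty and Eif2s3y were at 9.11 to 10.7 on all 6 arrays.

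Promoter sequence is shown for members of the osmolyte and NFAT5 target list: the pair that was higher in KO, and 2 whose windows hold the motif, 1 not called and 1 called lower, with the core of the tonicity enhancer bound by NFAT5, TGGAAA on either strand, in capitals. Sequences are the bases before a RefSeq transcription start on the GRCm38.p6 assembly, 5′ to 3′ on the strand of the gene. Slc5a3 and Mrps6 have starts 14 bases apart, and the window both share does not hold the motif. For Slc6a12 the window shown, chosen from 5 of the gene because it holds the motif, has it 75 bases before the start, and the window of Ccn1 has it 207 bases before. Of 18 tested osmolyte and NFAT5 target genes with a window of 250 bases, 5 have a window with the motif (Ccn1, Ddx58, Pnpla6, Slc6a12 and Tnf). Counted by window it is in 6 of 24 windows of these genes and in 18.6% of all 32851 windows. Known tonicity enhancers can lie outside these windows, so a window without the motif says nothing about the factor.
Slc5a3 and Mrps6, chr16:92058086-92058321, plus strand: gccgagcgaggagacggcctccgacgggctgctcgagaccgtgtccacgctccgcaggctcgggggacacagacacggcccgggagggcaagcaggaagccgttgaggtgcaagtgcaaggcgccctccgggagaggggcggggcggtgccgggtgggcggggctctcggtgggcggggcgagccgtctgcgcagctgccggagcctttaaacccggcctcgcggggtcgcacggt
Slc6a12, chr6:121342324-121342573, plus strand: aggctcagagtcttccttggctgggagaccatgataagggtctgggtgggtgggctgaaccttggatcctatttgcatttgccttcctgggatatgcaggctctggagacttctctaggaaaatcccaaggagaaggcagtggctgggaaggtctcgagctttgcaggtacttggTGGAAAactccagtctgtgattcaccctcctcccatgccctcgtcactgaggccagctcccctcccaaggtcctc
Ccn1, chr3:145649986-145650235, minus strand: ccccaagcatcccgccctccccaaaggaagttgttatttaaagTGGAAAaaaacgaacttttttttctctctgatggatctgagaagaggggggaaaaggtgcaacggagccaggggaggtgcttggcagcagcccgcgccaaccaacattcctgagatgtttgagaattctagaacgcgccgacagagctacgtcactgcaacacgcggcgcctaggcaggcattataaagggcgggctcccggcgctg

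The targeted gene was read first. Nfat5 was at 10.13, 9.99 and 9.94 in WT arrays 1, 2 and 4 and at 9.83, 9.72 and 9.73 in the KO arrays. The KO values lay just below the WT values without overlap, and the difference of -0.26 ± 0.16 did not pass (limma adjusted p = 0.367). A probe set that lies outside a deleted stretch cannot check a knockout, and the sources used here do not say where the deletion lies. Among the 5 measured neighbours on each side of Nfat5, Nqo1, which encodes a quinone reductase, was higher in KO by 1.34 ± 0.20 and Sntb2, which encodes a syntrophin, by 0.54 ± 0.14. The call of Sntb2 was lost without WT array 2 (limma adjusted p = 0.0855) or KO array 1 (0.0811). The other 8 neighbours did not pass.

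In isotonic medium limma called 2298 of 15711 genes (14.6%) between the lines, 1223 higher in KO (7.78%) and 1075 lower (6.84%). Without KO array 1 it called 1728, 844 higher and 884 lower. Of the called genes 862 differed at least 2-fold (5.49% of those tested), 462 higher and 400 lower, and 73 and 46 differed at least 8-fold. The median difference over all genes was 0.02. The 3 KO arrays lay above the 3 WT arrays for 2706 genes and below them for 2214, together 31.3% of genes. All 6 KO arrays, isotonic and hypertonic, lay above all 12 WT arrays for 645 genes and below them for 693, together 8.52%.

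The line difference was measured a second time on the 6 arrays kept in hypertonic medium without Torin1. These share no array with the isotonic ones, though they carry the same numbers. Both comparisons use the same estimate of a gene's spread, so a gene with a small spread is more readily called in both. Calls in the 2 media are thus not independent. Of the 2298 genes called in isotonic medium, 1481 (64.4%) were called in the same direction in hypertonic medium. A further 61 were called in the opposite direction and 756 did not pass. Of all genes tested 31.9% were called there, a share that counts both directions and so is not a like measure to the 64.4%. Those 1481 genes are 29.6% of the 5007 called in hypertonic medium. Of the 862 genes called at least 2-fold, 738 were called in the same direction. The size of the line difference itself depended on the medium for 1492 of 15711 genes (limma interaction, 9.5%), 323 of them among the 2298.

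**Figure D1:**
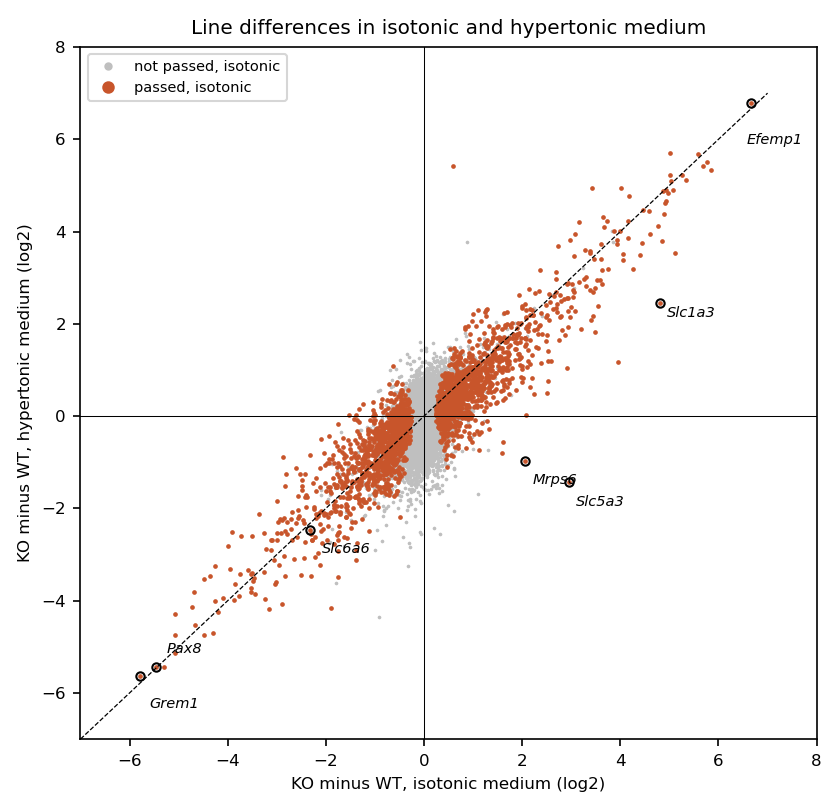
KO minus WT differences of 15711 genes in isotonic medium (x axis, log2) and hypertonic medium (y axis, log2), with the 2298 genes called in isotonic medium in orange and the others in grey, and a dashed line where both are equal. Efemp1, Grem1 and Pax8 lie near the line, while Slc5a3 (2.94 and -1.44) and Mrps6 (2.07 and -0.98) change sign.

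Among the 12 largest called increases in KO were genes for secreted and matrix proteins, a receptor and enzymes. Efemp1, which encodes a fibulin of elastic and basement membrane matrix, was at 6.28, 5.97 and 6.85 in WT arrays 1, 2 and 4 and at 12.93, 13.07 and 13.10 in KO arrays, a difference of 6.66 ± 0.25 or 101-fold (limma adjusted p = 3.22e-11). Prelp and Fmod, which encode small leucine-rich proteoglycans that bind collagen, were higher by 5.85 ± 0.26 and 5.25 ± 0.22. Sfrp2, a secreted modulator of Wnt signals, was at 6.18, 6.09 and 6.41 in WT and 12.23, 12.28 and 11.48 in KO arrays. For each of these genes every KO array lay at least 4 above every WT array on the log2 scale. Thbs2, a matricellular thrombospondin, was higher by 5.35 ± 0.14, Penk, the precursor of enkephalin peptides, by 5.69 ± 0.50, and the proteoglycan gene Aspn by 5.12 ± 0.67. Avpr1a, which encodes a vasopressin receptor, was higher by 5.01 ± 0.31, Dpep1, a membrane dipeptidase, by 5.07 ± 0.29, and Sgce, which encodes a sarcoglycan and is imprinted, by 5.04 ± 0.13.

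Hgf and Mgst1 also belong to the 12 largest increases, and their WT arrays were uneven. Hgf, the ligand of the Met receptor, was at 5.31, 5.19 and 7.57 in WT arrays 1, 2 and 4 and at 11.05, 11.44 and 12.30 in KO arrays (5.57 ± 0.81). Mgst1, a microsomal glutathione transferase, was at 5.96, 5.58 and 8.86 in WT and 11.74, 11.48 and 12.24 in KO arrays (5.02 ± 1.07). WT array 4 was the highest WT array for both, and lay below every KO array, as the choice of these genes required.

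Among the 12 largest called decreases in KO were genes for a secreted antagonist, 3 transcription factors, membrane proteins and enzymes. Grem1, which encodes a secreted antagonist of bone morphogenetic proteins, was at 13.14, 13.11 and 12.24 in WT and 7.16, 6.64 and 7.31 in KO arrays, a difference of -5.79 ± 0.28 or 55.3-fold (limma adjusted p = 7.69e-10). Pax8, a transcription factor of thyroid and kidney development, was at 12.65, 12.30 and 12.37 in WT and 6.66, 7.12 and 7.18 in KO arrays (-5.45 ± 0.17). Tfap2a, a factor of neural crest and skin, was lower by 5.31 (-5.31 ± 0.31), and Sox11, a factor of progenitor cells, by 4.74 (-4.74 ± 0.13). For Pax8, Tfap2a and Sox11 every KO array lay below every WT array, as the choice of these genes required. Stmn2, a microtubule regulator of neurons, was at 12.39, 12.33 and 8.87 in WT and 6.58, 6.13 and 5.64 in KO arrays (-5.08 ± 1.15). WT array 4 held the lowest WT level of Stmn2. Bves, a membrane protein of muscle and epithelium, differed by -5.08 ± 0.68, C4bp, a complement inhibitor, by -5.07 ± 0.70, Pcbd1, a cofactor of the factor HNF1, by -4.69 ± 0.14, and Cnn1, the smooth muscle protein calponin, by -4.49 ± 0.24. Inmt, a methyltransferase, differed by -4.48 ± 0.42, Ptprz1, a receptor phosphatase, by -4.35 ± 0.50, and Htr1b, a serotonin receptor, by -4.30 ± 0.47.

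For all 24 genes the 6 KO arrays of both media lay outside the 12 WT arrays, and all 24 were called in the same direction in hypertonic medium. These genes were taken for the size of their isotonic difference and for isotonic groups that do not overlap. The isotonic part of that separation was thus set by the choice, and only the hypertonic values are a second measurement. Efemp1 differed by 6.79 there, Sfrp2 by 5.51, Grem1 by -5.63 and Pax8 by -5.43.

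**Figure D2:**
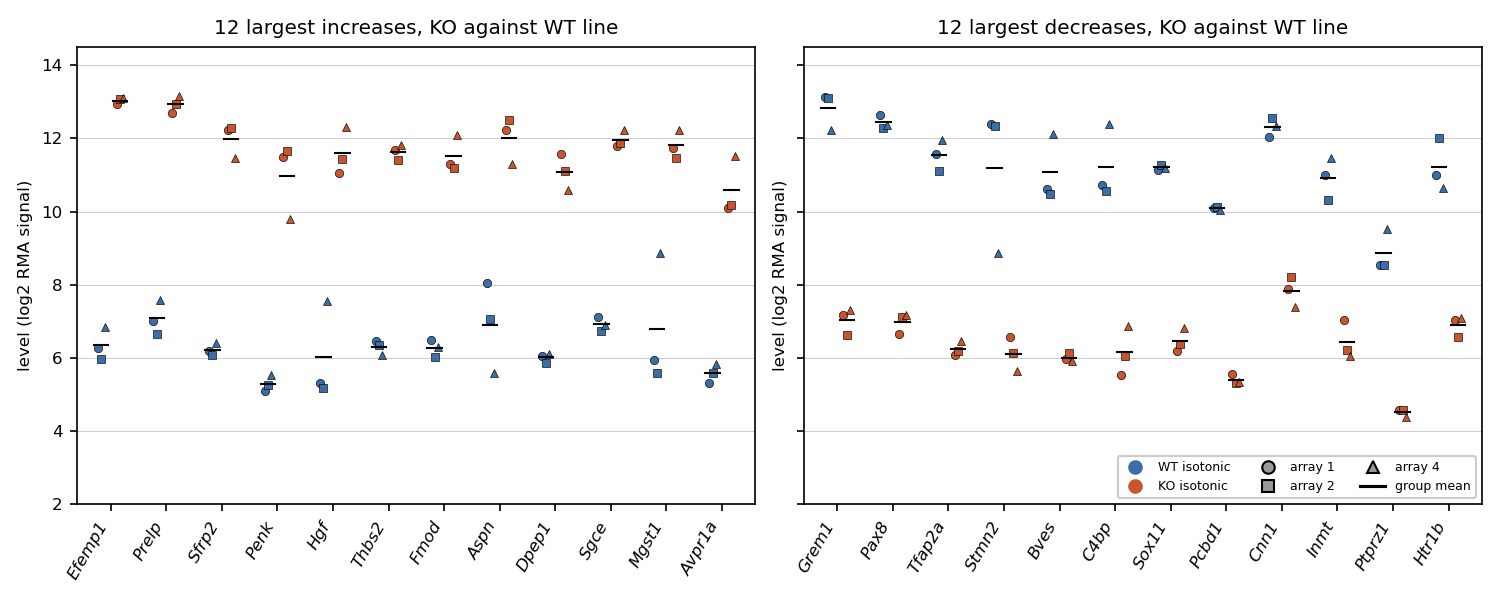
Levels (log2 RMA signal) of the 12 genes with the largest called increases and the 12 with the largest called decreases in KO, in the 3 WT (blue) and 3 KO (orange) isotonic arrays. Symbols mark the array number and bars the group mean. The 24 genes were taken only from those whose groups do not overlap. Array 4 stands apart from arrays 1 and 2 of WT for Hgf, Mgst1 and Stmn2.

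Osmolyte genes were split in isotonic medium. Slc5a3, the myo-inositol transporter, was at 8.26, 8.68 and 8.75 in WT arrays 1, 2 and 4 and at 11.67, 11.75 and 11.09 in KO arrays. It was higher in KO by 2.94 ± 0.29 or 7.70-fold (limma adjusted p = 2.5e-06), and all KO arrays lay far above the WT arrays. Mrps6, a mitochondrial ribosomal protein gene whose start lies beside that of Slc5a3, was at 9.70, 9.87 and 9.72 in WT and 12.18, 12.06 and 11.25 in KO arrays (2.07 ± 0.29). Whether the probes of these neighbouring genes read shared transcripts was not tested. In hypertonic medium both differences had the opposite sign, with Slc5a3 at 11.76, 11.63 and 10.88 in WT and 10.19, 10.34 and 9.43 in KO arrays. The 3 isotonic KO arrays of Slc5a3 lay within the range from 10.88 to 11.76 of the hypertonic WT arrays, and its line difference changed by -4.38 ± 0.41 between media (limma adjusted p = 5.67e-05).

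The taurine transporter gene Slc6a6 went the other way. It was at 13.01, 12.73 and 12.81 in WT and 10.58, 10.97 and 9.998 in KO arrays, a difference of -2.33 ± 0.25 (limma adjusted p = 5.89e-06) beside -2.48 in hypertonic medium. No KO array reached the lowest WT array. The chaperone gene Hspa4l was at 7.76, 7.94 and 7.501 in WT and 6.45, 6.36 and 6.22 in KO arrays (-1.39 ± 0.38). Its arrays did not overlap, but the call was lost without WT array 1 (limma adjusted p = 0.0608), WT array 2 (0.0781), KO array 2 (0.0581) or KO array 4 (0.0627). Ccn1, a matricellular protein gene, differed by -0.44 ± 0.14, a call lost without any of WT arrays 2 and 4 and KO arrays 1 and 2 (limma adjusted p from 0.117 to 0.169).

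The other osmolyte and NFAT5 target genes did not pass, so of 20 tested 2 were higher, 3 lower and 15 not called (25% called, against 14.6% of all genes). The median difference was 0.05 against 0.02 over all genes. Both higher genes, Slc5a3 and Mrps6, come from the same locus. Hspa4l and Ccn1 among the lower ones lost their calls as given above, so the share is not read as a result about the list. Without KO array 1 the counts were 2 and 2, they fell to 1 lower without WT array 2 or KO array 2, and they rose to 3 higher and 6 lower without the arrays of number 4. The betaine transporter gene Slc6a12 was at 6.71, 6.93 and 6.73 in WT and 6.796, 6.92 and 6.86 in KO arrays, a difference of 0.07 ± 0.44. Slc38a2, a neutral amino acid transporter gene, differed by 0.06 ± 0.14 and the heat shock gene Hspa1a by 0.12 ± 0.12. The groups overlapped for these 3 genes. Aqp1, a water channel gene, was at 9.19, 8.86 and 8.11 in WT and 7.999, 7.85 and 7.74 in KO arrays without overlap, and its difference of -0.86 ± 0.54 did not pass (limma adjusted p = 0.356). It passed without the arrays of number 4 (-1.10, limma adjusted p = 0.00553). S100a4 differed by 0.96 ± 0.86, which among the alternatives run passed only with a block for array number (limma adjusted p = 0.0211) or without the arrays of number 4 (0.0127).

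Of 22 volume and ion transport genes 2 were higher and 2 lower, a share near that of all genes (18.2% against 14.6%), with a median of -0.04. The counts were 1 and 2 without KO array 1, 3 and 5 with the block and 5 and 6 without the arrays of number 4. Without WT array 1, WT array 2 or KO array 4 the count of higher genes was 1 as well. Sgk1, a kinase that acts on ion channels and transporters, was at 10.14, 9.94 and 10.14 in WT and 8.95, 8.49 and 8.31 in KO arrays (-1.49 ± 0.17, limma adjusted p = 1.52e-05). Slc12a2, the sodium-potassium-chloride cotransporter that brings salt into shrunken cells, was at 11.91, 11.63 and 12.29 in WT and 10.85, 10.75 and 10.72 in KO arrays (-1.17 ± 0.27). Both were lower on every KO array. Lrrc8e, a subunit of the volume-regulated anion channel, was higher by 0.61 ± 0.11.

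**Figure D3:**
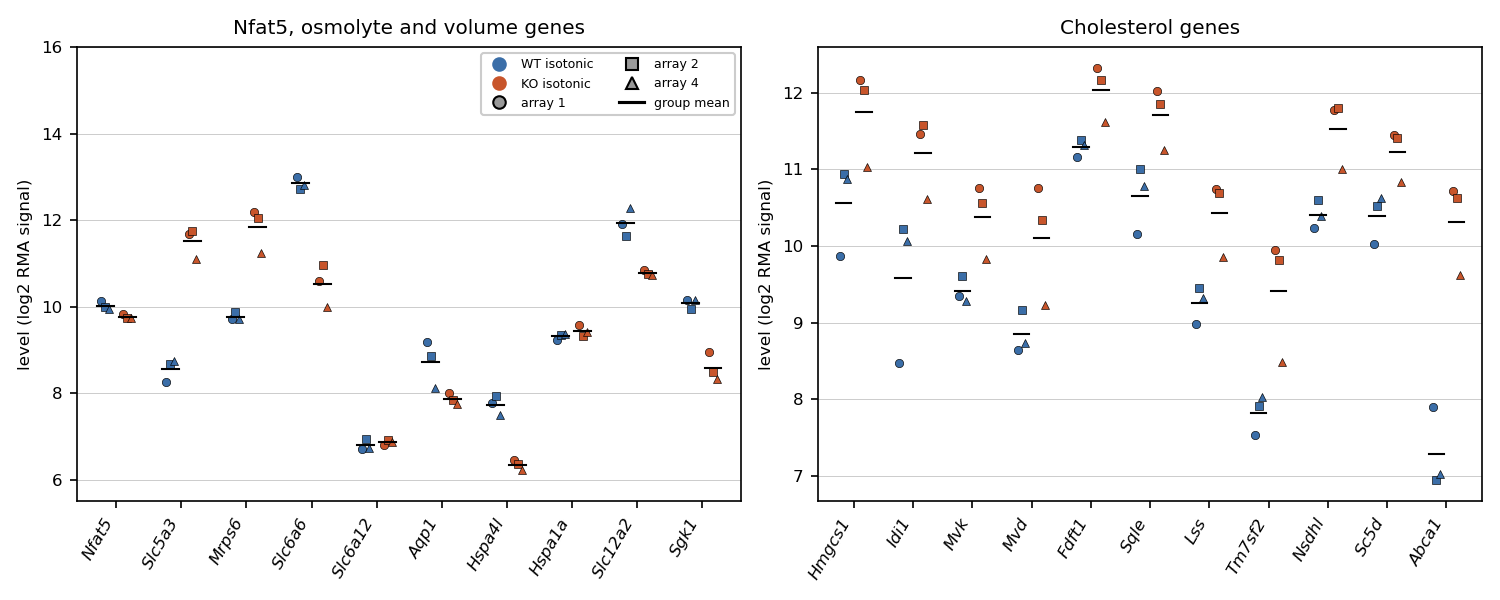
Levels (log2 RMA signal) on the 3 WT (blue) and 3 KO (orange) isotonic arrays, with symbols for the array number and bars for the group mean. The left panel shows Nfat5 with osmolyte and volume genes, where Slc5a3 and Mrps6 are higher and Slc6a6 lower on every KO array. The right panel shows cholesterol genes, where KO array 4 lies below KO arrays 1 and 2.

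Many genes of cholesterol synthesis and uptake were higher in KO. Of 22 tested 13 were higher (7.78% of all genes were called higher), 0 lower and 9 did not pass, with a median difference of 1.01, and none of the 22 had a difference below 0. The count was 6 without WT array 1, 5 without KO array 1 and 6 without KO array 2, 20 with the block and 21 without the arrays of number 4. Hmgcs1, which makes the precursor of mevalonate, was at 9.87, 10.94 and 10.88 in WT and 12.17, 12.04 and 11.03 in KO arrays (1.19 ± 0.30). Its groups did not overlap, but KO array 4 lay only just above WT array 2, and the call was lost without WT array 1 (limma adjusted p = 0.0742), KO array 1 (0.0746) or KO array 2 (0.0669). Lss, the synthase that forms lanosterol, was higher by 1.18 ± 0.26 and Tm7sf2, a sterol reductase, by 1.59 ± 0.34 (limma adjusted p = 0.00535 and 0.00443). Mvd, a decarboxylase of the mevalonate pathway, was at 8.65, 9.16 and 8.73 in WT and 10.76, 10.34 and 9.24 in KO arrays (1.26 ± 0.29). Lss, Tm7sf2 and Mvd kept the call without each single array, but Mvd lost it in a fit of the 6 isotonic arrays alone (limma adjusted p = 0.0791). Idi1, an isomerase of the same pathway, had the largest difference among the synthesis genes (1.63 ± 0.52) and lost the call without WT array 1 (1.08, limma adjusted p = 0.208), KO array 1 (0.134) or KO array 2 (0.152). Abca1, which exports cholesterol from the cell, was at 7.90, 6.94 and 7.03 in WT and 10.71, 10.63 and 9.62 in KO arrays, higher by 3.03 ± 0.29 or 8.15-fold.

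Genes of glutathione metabolism and targets of the factor NRF2, which turns on defences against electrophiles, were read as 1 list. Of 45 tested 17 were higher (7.78% of all genes were called higher), 0 lower and 28 did not pass (17 higher and 1 lower without KO array 1), with a median of 0.32, and leaving out single arrays gave 16 to 18 higher. Among the glutathione transferases Gsta4 was at 6.39, 6.49 and 6.85 in WT and 10.74, 10.71 and 8.43 in KO arrays (3.38 ± 0.49), Gstm2 was higher by 2.22 ± 0.26 and Mgst2 by 2.05 ± 0.29. KO array 4 was the lowest KO array for Gsta4 and the highest for Mgst1 and Gstm2. Sod3, a secreted superoxide dismutase, was higher by 1.59 ± 0.22, Aldh3a1, an aldehyde dehydrogenase, by 1.33 ± 0.12, Hmox1, which degrades heme, by 1.09 ± 0.16, and Cbr1, a carbonyl reductase, by 0.95 ± 0.09. Nqo1 (1.34 ± 0.20), the neighbour of Nfat5 named above, is also among the 17. Whether its difference has to do with the targeted locus was not tested. Not all NRF2 targets moved: Gclc and Gclm, the subunits of the enzyme for the limiting step of glutathione synthesis, differed by 0.32 ± 0.19 and 0.03 ± 0.17 and did not pass. The call of Gclc was gained without KO array 4 (limma adjusted p = 0.0222).

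Among contractile and serum response factor (SRF) target genes, calls were nearly all towards lower levels in KO. Of 41 tested 15 were lower (6.84% of all genes were called lower), 1, the intermediate filament gene Des, was higher, and 25 did not pass, with a median of -0.22. Without KO array 1 the counts were 12 and 1, without KO array 4 10 and 2. Actg2, smooth muscle gamma actin, was at 12.57, 12.88 and 12.64 in WT and 9.49, 9.43 and 8.79 in KO arrays (-3.46 ± 0.22, limma adjusted p = 1.95e-08). Cnn1 was at 12.05, 12.57 and 12.35 in WT and 7.89, 8.21 and 7.40 in KO arrays, a 22.4-fold difference. The KO arrays of both genes lay far below the WT arrays. Ccn2, a matricellular target of SRF and YAP, differed by -1.65 ± 0.26, the cofactor gene Fhl2 by -1.60 ± 0.22, Lmod1, which nucleates actin in smooth muscle, by -1.03 ± 0.22 and the tropomyosin gene Tpm2 by -0.85 ± 0.11. Tagln, another smooth muscle actin-binding protein, differed by -0.52 ± 0.15, a call lost without any array but KO array 1 (limma adjusted p from 0.0518 to 0.113). Acta2, smooth muscle alpha actin, was at 13.50, 13.71 and 13.68 in WT and 13.54, 13.56 and 13.50 in KO arrays, and its difference of -0.10 ± 0.07 did not pass. The SRF gene itself, Srf, differed by -0.32 ± 0.19 and did not pass.

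Among genes of adipocytes and their precursors, 10 of 33 tested were higher and 3 lower (39.4% called, against 14.6% of all genes), 7 and 3 without KO array 1, 16 and 4 with the block and 19 and 4 without the arrays of number 4, with a median of 0.37, and 7 and 2 without WT array 1. Pparg, the master regulator of adipocyte differentiation, was at 7.26, 7.25 and 7.36 in WT and 11.73, 11.42 and 10.68 in KO arrays, higher by 3.99 ± 0.32 or 15.9-fold (limma adjusted p = 2.49e-07). Cebpa, its partner factor, was higher by 1.75 ± 0.17 and Zfp521, a zinc finger factor of mesenchymal precursors, by 3.73 ± 0.24. Lpl, the lipase that frees fatty acids from lipoproteins, was at 5.52, 5.56 and 5.56 in WT and 9.20, 9.16 and 8.58 in KO arrays (3.43 ± 0.13). The WT arrays were nearly equal for Pparg and Lpl, and KO array 4 was the lowest KO array for both. The WT means of Lpl (5.55) and Zfp521 (5.53) lay below the filter on dim genes (5.86). The closeness of the WT arrays of Lpl is thus that of dim signals. Plin4, which coats lipid droplets, was higher by 2.48 ± 0.26 and the fatty acid binding protein gene Fabp4 by 1.81 ± 0.24. Adipoq, the hormone adiponectin, was at 5.45, 5.71 and 5.45 in WT and 7.28, 7.86 and 5.79 in KO arrays, and its call (1.44 ± 0.42) was lost without any array but KO array 4 (limma adjusted p from 0.0592 to 0.166). Prdm16, a factor of brown fat, differed by -1.22 ± 0.24 and the early factor gene Klf4 by -1.38 ± 0.14.

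**Figure D4:**
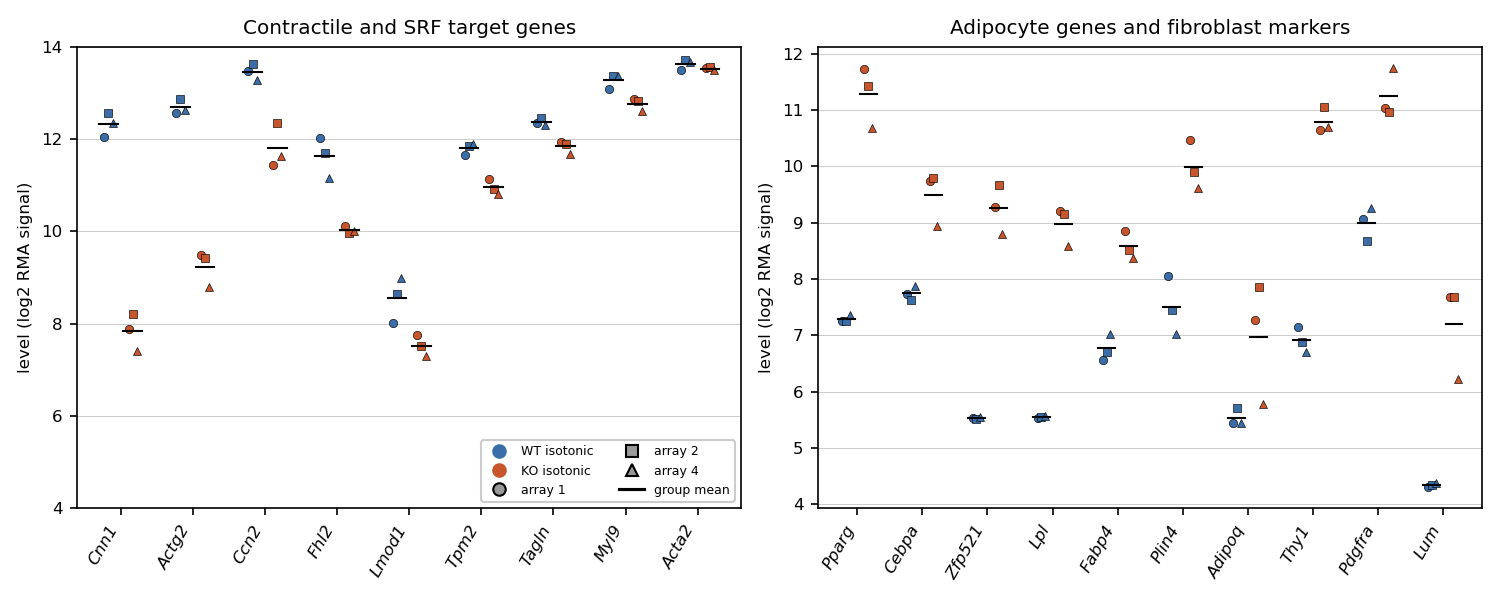
Levels (log2 RMA signal) on the 3 WT (blue) and 3 KO (orange) isotonic arrays, with symbols for the array number and bars for the group mean. Cnn1 and Actg2 are far lower and Acta2 nearly level in KO (left panel), and Pparg, Zfp521, Lpl, Thy1 and Lum are higher on every KO array (right panel).

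Secreted matrix genes differed in both directions. Of 74 glycoprotein and proteoglycan genes 22 were higher and 13 lower (47.3% called, against 14.6% of all genes), with a median of 0.19. Without KO array 1 the counts were 20 and 12. Beside Efemp1, Prelp, Thbs2, Fmod and Aspn, the microfibril gene Mfap5 was at 8.33, 8.07 and 6.72 in WT and 12.76, 12.63 and 12.50 in KO arrays (4.92 ± 0.53). Smoc1, a calcium-binding matricellular gene, was higher by 3.60 ± 0.24 while its paralog Smoc2 differed by -2.99 ± 0.21. The basement membrane chain Lama5 was at 11.75, 11.19 and 10.59 in WT and 8.30, 7.78 and 8.47 in KO arrays (-2.99 ± 0.30), and Agrn, which encodes agrin, differed by -2.20 ± 0.15. Smoc1 and Smoc2 thus separated the lines in opposite directions on every array.

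Of 43 collagen genes 8 were higher and 4 lower (27.9% called, against 14.6% of all genes). The counts were 4 and 4 without KO array 1, 9 and 10 with the block and 9 and 12 without the arrays of number 4. They were 5 and 4 without WT array 1, 4 and 4 without WT array 2, 4 and 8 without WT array 4 and 5 and 5 without KO array 2. Col6a1 and Col6a2, which encode chains of the same beaded filament, were higher by 1.74 ± 0.25 and 2.20 ± 0.23. Col8a1, a chain of short-chain network collagen, was at 11.23, 11.25 and 11.07 in WT and 7.9998, 8.44 and 8.72 in KO arrays (-2.79 ± 0.21), its partner Col8a2 differed by -1.13 ± 0.13 and the fibril gene Col11a1 by -2.38 ± 0.22. Of the other type VI chains tested, Col6a5 was higher by 0.80 ± 0.26 (limma adjusted p = 0.0491), and Col6a3 and Col6a6 did not pass (0.00 ± 0.47 and 0.23 ± 0.12). The main chain gene Col1a1 was at 13.22, 13.18 and 12.62 in WT and 13.21, 12.96 and 13.03 in KO arrays (0.06 ± 0.29) and did not pass. Of 27 genes of collagen processing 4 were higher and 4 lower (29.6% called). When single arrays were left out 1 to 4 were higher and 2 or 3 lower (1 and 2 without WT array 2, 1 and 3 without KO array 4). Tll1, a protease that trims procollagen, differed by -3.53 ± 0.41 and the crosslinking oxidase gene Loxl3 by 0.65 ± 0.11. Among 43 matrix proteases and inhibitors 9 were higher and 6 lower (34.9% called), 8 and 5 without KO array 1. Mmp23 was higher by 4.60 ± 0.14, Timp3, an inhibitor of such proteases, by 1.03 ± 0.13, and Htra1, a serine protease gene, and Mmp16 differed by -2.03 ± 0.28 and -1.73 ± 0.33.

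Genes for signals between cells were often called. Of 58 growth factor ligand and binding protein genes 12 were higher and 20 lower (11 and 19 without KO array 1), beside 7.78% and 6.84% of all genes. Igf2, an imprinted growth factor gene, was at 8.36, 7.71 and 7.61 in WT and 12.53, 12.29 and 12.23 in KO arrays (4.46 ± 0.25). Vegfd, a lymphatic growth factor gene, was higher by 3.54 ± 0.26 and the binding protein gene Igfbp3 by 2.55 ± 0.34. Fgf18 was at 11.80, 11.54 and 11.88 in WT and 7.82, 8.02 and 7.60 in KO arrays (-3.92 ± 0.35). These 4 genes separated the lines on every array. Sema3a, which repels growing axons, differed by -3.85 ± 0.24, Pdgfb by -2.94 ± 0.22, Fgf10 by -1.90 ± 0.20 and the neurotrophin gene Bdnf by -1.72 ± 0.11.

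Of 78 growth factor receptor genes 16 were higher and 11 lower (34.6% called, against 14.6% of all genes), 13 and 12 without KO array 1, 21 and 20 with the block and 33 and 15 without the arrays of number 4. Pdgfra, the PDGF alpha receptor of mesenchymal precursors, was at 9.06, 8.67 and 9.27 in WT and 11.04, 10.96 and 11.74 in KO arrays (2.25 ± 0.36). The Wnt receptor gene Ror1 was higher by 2.504 ± 0.14, and the semaphorin receptors Plxnd1 and Plxna2 by 2.30 ± 0.13 and 2.29 ± 0.20. Robo1 and Robo2, receptors of Slit ligands, differed by -1.92 ± 0.09 and -3.12 ± 0.21, Eng, a coreceptor of TGF-beta, by -2.15 ± 0.36 and Igf1r, the receptor of IGF ligands, by -0.89 ± 0.10. Igf2 and its receptor gene Igf1r thus differed in opposite directions.

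Of 55 secreted Wnt, BMP and TGF-beta family genes 11 were higher and 10 lower (38.2% called, against 14.6% of all genes), 12 and 7 without KO array 1. Beside Sfrp2, the Wnt antagonists Sfrp4 and Dkk3 were higher by 2.70 ± 0.38 and 2.08 ± 0.38 and the ligand gene Wnt11 by 1.73 ± 0.23. Beside Grem1, the ligand gene Bmp2 was at 6.98, 7.51 and 7.28 in WT and 5.39, 5.30 and 4.97 in KO arrays (-2.04 ± 0.19), and Inhba, the activin subunit gene, differed by -1.58 ± 0.23. A BMP ligand and its antagonist were both lower in KO.

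Of 57 integrin and cadherin genes 15 were lower and 7 higher (38.6% called, against 14.6% of all genes), with a median of -0.11. The counts were 13 and 5 without KO array 1 and 22 and 13 without the arrays of number 4. Cdh2, N-cadherin, was at 10.80, 10.62 and 10.67 in WT and 9.20, 9.48 and 8.76 in KO arrays (-1.55 ± 0.19). Cdh4, Cdh6 and Cdh10 differed by -2.97 ± 0.20, -2.44 ± 0.34 and -2.70 ± 0.28, and the plaque protein gene Pkp2 by -2.49 ± 0.17. Cdh1 and Cdh3, the E- and P-cadherin genes of epithelia, were higher by 1.72 ± 0.22 and 2.32 ± 0.34. Thy1, a surface glycoprotein of fibroblasts, was at 7.14, 6.89 and 6.70 in WT and 10.64, 11.05 and 10.69 in KO arrays (3.88 ± 0.17, 14.7-fold). Cadherin genes thus separated the lines in both directions.

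Of 71 transcription factors of mesenchymal lineages 21 were higher and 10 lower (43.7% called, against 14.6% of all genes), 18 and 7 without KO array 1 and 29 and 18 without the arrays of number 4, with a median of 0.13. Osr2, a factor of palate, joint and kidney mesenchyme, was at 6.71, 6.54 and 6.76 in WT and 11.78, 11.55 and 11.28 in KO arrays (4.87 ± 0.28, limma adjusted p = 7.47e-09). Tbx1, a factor of the pharyngeal arches, was at 7.60, 7.53 and 7.52 in WT and 10.93, 10.67 and 10.88 in KO arrays (3.27 ± 0.08). Ebf2 and Ebf3, factors of adipose and other mesenchyme, were higher by 3.93 ± 0.24 and 3.16 ± 0.10, Sim2 by 3.08 ± 0.25, and the Iroquois genes Irx1 and Irx2 by 2.73 ± 0.25 and 2.97 ± 0.15. Gata3, Gata4 and Gata6 were all higher, by 1.88 ± 0.31, 1.24 ± 0.16 and 1.73 ± 0.18. In the other direction Zic2 was at 9.67, 9.39 and 8.97 in WT and 6.39, 5.88 and 5.997 in KO arrays (-3.25 ± 0.23) and Zic1 differed by -1.38 ± 0.11. Foxf1 and Foxf2, factors of visceral mesenchyme, differed by -1.77 ± 0.18 and -2.04 ± 0.28. Their paralogs Ebf1 (1.04 ± 0.35) and Gata2 (-0.49 ± 0.21) did not pass.

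Hox genes, which record position along the body axis, were called in a few cases and with small differences. Of 27 tested 5 were higher and 1 lower (22.2% called, against 14.6% of all genes), none at least 2-fold, with 3 and 0 without KO array 1 and 6 and 2 with the block. The counts also fell to 3 and 0 without WT array 1, 3 and 1 without WT array 2, 4 and 0 without WT array 4, and 4 and 0 without KO array 2. Hoxd8 was at 6.42, 6.32 and 6.43 in WT and 7.25, 7.14 and 6.83 in KO arrays (0.68 ± 0.12), and Hoxa7 was higher by 0.53 ± 0.09. Both kept the call without each single array. Of 37 imprinted genes, expressed from 1 parental copy, 9 were higher and 2 lower (29.7% called), 7 and 1 without KO array 1 and 15 and 3 without the arrays of number 4. Without WT arrays 1 or 2 or KO arrays 2 or 4 the lower count was 0 or 1 as well. Slc38a4, an amino acid transporter gene, was at 6.01, 5.98 and 6.29 in WT and 11.51, 11.26 and 10.15 in KO arrays (4.88 ± 0.33), Peg10 was higher by 4.01 ± 0.24 and Plagl1, a factor gene, by 1.94 ± 0.18. The neighbours Peg10 and Sgce were thus higher together.

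Of 26 cartilage and bone genes 5 were higher and 2 lower (26.9% called, against 14.6% of all genes). The counts were 5 and 1 without KO array 1, 9 and 5 with the block and 9 and 6 without the arrays of number 4. Sox9, the master factor of cartilage, was at 8.83, 9.40 and 9.62 in WT and 12.27, 12.33 and 11.02 in KO arrays (2.59 ± 0.36). Phex, an endopeptidase of bone cells, was at 5.36, 5.71 and 5.43 in WT and 10.28, 9.30 and 7.25 in KO arrays (3.45 ± 0.65), and Sp7, the osteoblast factor osterix, was higher by 1.73 ± 0.21. Tnfrsf11b, the decoy receptor osteoprotegerin, was at 11.83, 11.61 and 11.64 in WT and 10.15, 10.33 and 9.98 in KO arrays (-1.54 ± 0.13). Phex was the most uneven of these in KO, and KO array 4 again the lowest.

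Of 39 innate immune and complement genes 10 were higher and 5 lower (38.5% called, against 14.6% of all genes), 9 and 4 without KO array 1, 5 and 5 without WT array 2, 6 and 7 without KO array 4, and 16 and 10 without the arrays of number 4. Il33, an alarmin of stromal cells, was at 5.68, 5.76 and 6.09 in WT and 9.72, 9.56 and 10.43 in KO arrays (4.06 ± 0.23). Its WT mean of 5.84 lay just below the filter on dim genes (5.86). Il1rn, the receptor antagonist of interleukin-1, was higher by 2.07 ± 0.33. Ptges and Ptgs2, which act in sequence to make prostaglandin E2, differed by -3.87 ± 0.15 and -2.60 ± 0.27, and the receptor gene Tlr2 by -1.96 ± 0.37. Of 25 chemokine ligand genes 4 were higher and 0 lower, a share near that of all genes (16% against 14.6%). The counts were 3 and 0 without KO array 1, 6 and 1 with the block, 5 and 2 without KO array 4 and 10 and 6 without the arrays of number 4. Ccl9 was at 8.27, 8.45 and 8.15 in WT and 12.15, 11.996 and 12.53 in KO arrays (3.93 ± 0.29), and Cxcl14 was higher by 2.81 ± 0.39.

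Interferon-stimulated genes were seldom called, and the sign of their median depended on WT array 4. Of 40 tested 0 were higher and 1 lower by limma (2.5% called, against 14.6% of all genes), and 0 and 3 with the block. At an unadjusted limma p under 0.05 the counts were also 0 and 1. The called gene was Irgm1, an immunity-related GTPase gene, at 12.01, 11.86 and 12.66 in WT and 9.92, 10.03 and 10.65 in KO arrays (-1.97 ± 0.28). The median over the list was -0.46, and it was 0.28 without WT array 4, -0.78 without WT array 1 and -0.97 without WT array 2. Without the arrays of number 4 limma called 12 higher and 6 lower. Decorin, Dcn, a proteoglycan gene of fibroblasts, also turned on that array, with 8.17, 7.27 and 11.66 in WT and 12.58, 12.60 and 13.39 in KO arrays. Its difference of 3.82 ± 1.37 did not pass (limma adjusted p = 0.0793), and passed with the block (0.000337) or without WT array 4 (0.0215).

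Genes of cell division were seldom called. Of 45 DNA replication genes limma called 0 (4 at an unadjusted p under 0.05, 3 higher and 1 lower), 1 without KO array 1, 2 with the block and 5 without the arrays of number 4, with Pole2, a polymerase subunit gene, at 0.58 ± 0.24 the farthest from 0. Of 48 mitosis genes 0 were higher and 1, Kif18a, was lower, a call lost without WT array 1 or 2 or KO array 1 or 4 (limma adjusted p from 0.0969 to 0.128). Of 31 G1 genes 1 was higher and 2 lower, counts that were 0 to 3 and 1 to 3 when single arrays were left out. The cyclin D kinase gene Cdk6 was at 10.83, 10.63 and 10.73 in WT and 8.93, 8.90 and 10.01 in KO arrays (-1.45 ± 0.28). These shares lay below the background of 14.6%.

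The remaining lists are set against the 14.6% of all genes called. Of 27 heat shock protein genes 0 were higher and 3 lower, 11.1% (0 and 2 without KO array 1, 1 and 5 without the arrays of number 4, 1 and 1 without WT array 2, and 1 lower without KO array 2 or 4). Hspb1, a small heat shock protein that binds actin, was at 12.92, 12.65 and 12.12 in WT and 10.52, 10.48 and 10.51 in KO arrays (-2.06 ± 0.23). Of 27 p53 target genes 3 were higher and 2 lower, 18.5%, 2 and 1 without KO array 1 or 2, 5 and 1 without WT array 4 or KO array 4, 7 and 3 with the block and 12 and 4 without the arrays of number 4. The death receptor gene Tnfrsf10b was higher by 1.06 ± 0.13 and Pmaip1, which encodes Noxa, differed by -1.29 ± 0.21. Of 31 ATF4 targets 6.45% were called: 1 was higher, the glutamine transporter gene Slc1a5 (1.61 ± 0.18), and 1 lower, the stress gene Nupr1 (-1.37 ± 0.30), with 4 higher without WT array 2 and 2 without KO array 4. Of 35 glycolysis and HIF-1 targets 2 were higher and 0 lower, 5.71%, with 0 to 2 in each direction when single arrays were left out and 0 in both without KO array 1, and 6 and 3 without the arrays of number 4. Of 49 ribosomal protein genes 3 were higher and 0 lower, 6.12%, none in 5 of the 6 fits that left out 1 array (all but WT array 2) and 8 with the block. Of 9 NFAT and Rel family genes 0 were higher and 2 lower, 22.2%. These were Relb and Nfkb2, which both lost the call in a fit of the 6 isotonic arrays alone (limma adjusted p = 0.0791 and 0.0551), with 1 also higher without WT array 1 and 1 lower without WT array 4, KO array 1 or KO array 2.

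**Figure D5:**
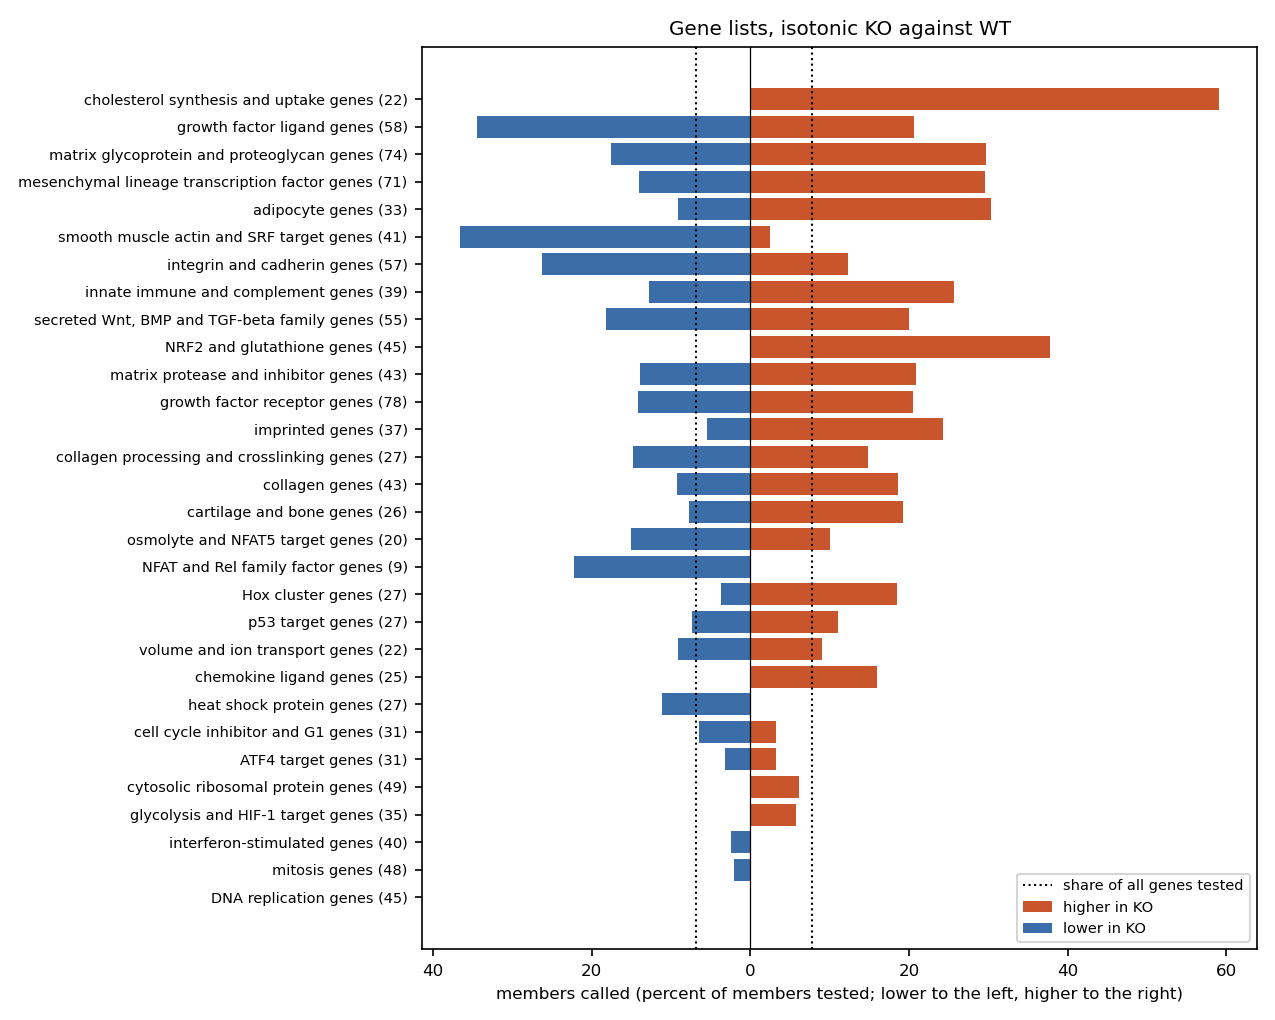
Percent of tested members called higher (orange, right) and lower (blue, left) in KO in isotonic medium for the 30 gene lists, with the number tested in parentheses. Dotted lines mark the share of all 15711 genes, 7.78% higher and 6.84% lower. Cholesterol genes have 59.1% called, all higher, and DNA replication genes 0.

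Markers of other cell types were read as whole lists. Of all genes tested 14.6% were called, 7.78% higher and 6.84% lower, so counts of 1 or 2 in these short lists are not read as a result about a cell type. Of 14 tested epithelial markers 2 were higher (Cdh1 and Esrp2), of 12 endothelial 2 (Tek and Egfl7), of 13 macrophage and blood cell 2 (Cd53 and Lyz2), of 15 skeletal muscle 1 (Des) and of 7 pluripotent and germ cell markers 1 (Nanog), with none lower in these lists. Cd53, a tetraspanin of leukocytes, was at 5.44, 5.41 and 5.61 in WT and 8.63, 8.54 and 8.02 in KO arrays (2.91 ± 0.20). Its WT arrays lay below the filter on dim genes (5.86). Of 13 neural and glial markers 1 was higher (S100b) and 2 lower, Nes by 2.91 (-2.91 ± 0.52) and Stmn2. The call of S100b was lost without KO array 1 (limma adjusted p = 0.0516) or in a fit of the 6 isotonic arrays alone (0.0629). Of 12 pericyte and smooth muscle markers 2 were higher, Notch3 (1.84 ± 0.22) and Des. The 4 lower ones were Cnn1, Lmod1, Cspg4 (-2.20 ± 0.52) and Mcam (-2.49 ± 0.22). Of 14 fibroblast markers 5 were higher (Thy1, Pdgfra, Lum, Col3a1 and Twist2) and 0 lower. The log2 of the summed signal of a list ranged over the WT and then the KO arrays from 15.90 to 16.05 and 16.26 to 16.34 for fibroblast, 14.3 to 14.6 and 13.7 to 13.9 for pericyte and smooth muscle, 11.4 to 13.2 and 10.6 to 11.5 for neural, 10.66 to 10.71 and 10.91 to 11.19 for epithelial, 10.6 to 10.7 and 10.5 to 11.1 for endothelial, and 10.5 to 10.6 and 10.8 to 10.9 for macrophage markers. Array signals have no true 0, so no marker was read as absent. Whether cells of other types have a part in the differences was not tested. In bulk RNA, more cells of a type and more RNA per cell cannot be told apart.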

How the data were processed

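The authors deposited RMA signals on the log2 scale for 34760 probe sets on 18 arrays, made in R 2.11.1 per the submitters' processing notes, and these were used without further normalization. No source used here gives the genome build behind the array annotation. Of the probe sets 21640 name 1 gene, 1321 several and 11799 none, and where several probe sets name a gene the one with the highest mean stands for it. Genes with a highest group mean above the 30th percentile (5.86 log2) were kept, 15711 in all, and 8512 unnamed probe sets were fitted apart (93 higher, 73 lower). A gene could thus be tested with the mean of a line below that level. Its difference then rests on a dim signal in that line.

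limma 3.58.1 in R 4.3.3 was run on the 18 arrays with 6 group means (residual df 12, prior df 3.29), with Benjamini-Hochberg adjustment over all genes. Same-numbered isotonic WT and KO arrays deviated together (r = 0.169, 0.333 and 0.361 over genes for 1, 2 and 4). WT array 2 with KO array 1 gave 0.282, above the same-numbered pair 1, and WT array 1 with KO array 2 gave 0.079. Pairs of a number 4 array with another number gave -0.388 to -0.158. Deviations from a group mean cancel within the group, so these negative values are tied to the positive one for number 4 and add no evidence. Because of the same-numbered pairs the array number was also fitted as a block, quoted as the block in the results. What the numbers stand for is not stated. On simulated data the fit for KO against WT, isotonic, over 15711 genes found 86 of 100 genes given a 1 log2 shift and 98 of 100 given 2, with 9 of 193 calls false. The simulated noise was normal and independent between arrays, and far fewer genes were changed than were called here. These figures thus do not cover deviations that arrays share. Alternatives were other filters, probe set rules, scalings and priors, array weights, the 6 arrays alone, the block, arrays left out and the other label of KO array 1.

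Members and gene lists were chosen with earlier results of these data known, and lists are described by counts beside all genes, with no set test. Genes named are Nfat5 and osmolyte genes, the 12 largest called increases and decreases without overlap (no gene models, small RNAs or multi-copy families), up to 4 called members a list, the member farthest from 0 of a list without calls, and 5 called genes whose difference changed with the medium, 132 in all. Further genes, 84 run through the alternatives and a few given as levels or values only, were added after their values were seen. Akr1b3 and Hspa1b were not analysed here, having no probe set that names them alone. The number of arrays limits the precision.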

Additional observations from a re-analysis of the deposited data

Results flagged for a closer look

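The line difference changed with the medium for the following genes by limma's interaction test (adjusted p below 0.05 over all genes). Values are the hypertonic minus the isotonic difference between KO and WT, on the log2 scale, and technical or other reasons for them were not tested.

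Il1f9, an interleukin-1 family cytokine gene, changed most of the genes named, by 4.85 ± 0.19. It was at 4.58, 4.70 and 4.82 in isotonic WT and 5.22, 5.36 and 5.28 in isotonic KO arrays, all dim, and at 4.73, 4.77 and 4.58 in hypertonic WT and 10.04, 10.40 and 9.93 in hypertonic KO arrays. Only the hypertonic KO arrays were bright. The gene passed the filter on dim genes (5.86) through that group alone, so its call here rests on the group that let it be tested. Slc5a3 and Mrps6 changed by -4.38 and -3.05, from higher to lower in KO. Slc1a3, a glutamate transporter gene, changed by -2.35: the isotonic arrays were at 6.86, 6.70 and 6.88 in WT and 11.57, 11.60 and 11.70 in KO, and the hypertonic ones at 8.96, 8.49 and 8.48 and at 11.02, 11.17 and 11.12. KO stayed above WT in both media. Fgf10 changed by -2.27, from -1.90 in isotonic to -4.17 in hypertonic medium.

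Line differences that were lower in hypertonic than in isotonic medium were also those of Sp7 (-1.25), Rassf2 (-1.08), Slc1a5 (-1.04), Hspa1a (-0.83), Timp3 (-0.82), Ror1 (-0.75), Pnpla6 (-0.71), Mmp23 (-0.67) and Hoxa7 (-0.48). Those of Lpl (1.52), Tnfrsf11b (1.56), Epha4 (1.49), Ptgs2 (1.48), Klf4 (1.29), Bmp2 (1.24), Mcam (1.10), Pkp2 (0.97), Pcbd1 (0.87), Irx2 (0.86), Sox11 (0.60) and Ephx1 (0.50) were higher there. The NRF2 targets Gclm, Hmox1 and Gclc changed by 1.38, 1.20 and 0.96. Tnfrsf11b, called lower in isotonic KO cells, differed by 0.02 in hypertonic medium.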

How the results depend on the processing

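Against 2298 genes called by limma (1223 higher, 1075 lower, 862 at least 2-fold), array weights, whose estimation stopped short of its convergence tolerance, gave 3970 (2084 and 1886) and leaving out all arrays of number 4 gave 3809 (2046 and 1763). KO array 1 counted as WT left 0 in each count, and the WT group then holds an array whose position between the lines is 1.006, at the KO arrays. With the array number as a replicate block 3285 were called (1687 and 1598, 956 at least 2-fold). Leaving out 1 isotonic array gave 1724 to 1837 for arrays 1 and 2 of either line and 2052 to 2063 for number 4, with 844 to 1161 higher, 762 to 968 lower and 786 to 923 at least 2-fold. The other filters, scalings, the trended prior and probe set means gave 2216 to 2432. The 6 isotonic arrays alone gave 1804, and 19 named genes lost the call there. Of 196 named genes that were called, 161 kept the call under all 17 alternatives run for single genes (the relabelled KO array 1 apart), 35 lost it under at least 1, and none turned direction. Without KO array 1, 168 kept the call. Over named genes and lists 4795 of 5196 alternative values kept their side of the threshold, or moved by less than their spread or 1.5 times, while 246 were weaker, 117 stronger and 38 moved. Array centring moved the share of higher calls from 53.2% to 48.1%. The unevenness of number 4 limits genes such as Dcn and Mgst1.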

Other observations

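The direction of the calls was uneven on some chromosomes, which were picked after the data were seen, and this was not tested. Over all genes 1223 were higher and 1075 lower of 15711 tested (7.78% and 6.84%). Chromosome 7 held 52 genes higher and 127 lower in KO of 1285 tested, and chromosome 4 held 44 and 95 of 984. Chromosome 6 held 94 higher and 50 lower of 770, chromosome 11 106 and 55 of 1376, and chromosome 15 65 and 30 of 635. Median differences by chromosome lay between -0.05 and 0.06, and copy number was not measured. Rassf2, which encodes a RAS-association domain protein, was at 6.45, 6.71 and 7.29 in WT and 11.32, 10.99 and 10.91 in KO arrays (4.26 ± 0.23).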
